A study of Mus musculus with 6 samples.

Results

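Notch receptors, ligands and targets were examined as 10 genes, namely the receptors Notch1, Notch2, Notch3 and Notch4, the ligands Jag1, Jag2 and Dll1, and the targets Hes1, Hey1 and Heyl. The members were chosen by gene symbol, and all 10 were found among the 29955 genes of the deposited table. RNA-seq had been performed on 3 libraries of Rnf40+/+ and 3 libraries of Rnf40-/- mouse embryonic fibroblasts (MEFs), all at passage 3, to ask which genes depend on RNF40. RNF40 is a subunit of the E3 ubiquitin ligase that monoubiquitinates histone H2B. In the Rnf40-/- cells, loxP-flanked exons of Rnf40 were removed by a tamoxifen-inducible Cre recombinase (CreERT2) expressed from the ubiquitously active Rosa26 locus, after 5 days in 250 nM 4-hydroxytamoxifen (4-OHT) and 3 further days without it. The MEFs described in the methods of the study came from embryos with both floxed alleles and CreERT2. Whether the Rnf40+/+ cells received 4-OHT or its vehicle is not given in the sources used here, so deletion and treatment cannot be told apart. Nor do the sources say whether the 3 libraries of a genotype came from separate embryos or cultures, so that p values measure the spread between libraries, which may be technical.

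The Notch pathway signals between neighbouring cells. A Jagged or Delta-like ligand on one cell binds a Notch receptor on the next, whereupon ADAM proteases and then the γ-secretase complex cut the receptor and release its intracellular domain. This domain enters the nucleus, joins the DNA-binding protein RBPJ and Mastermind coactivators, and switches on target genes, of which the HES and HEY transcriptional repressors are the best known. In mesenchymal cells Notch signaling is known for restraining differentiation, and NOTCH3 in particular is known from the mural cells of blood vessels.

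The deposited values are normalized counts, that is reads per gene divided by 1 DESeq size factor per library. The libraries held from 17053436 to 26344170 reads in Rnf40+/+ and from 18115481 to 20495627 reads in Rnf40-/- MEFs, and between 4723 and 6206 of these fell on the 10 members. The normalized count of Rnf40 itself was 1189.5 ± 91.2 (SD, n = 3) in Rnf40+/+ and 482 ± 39.9 (SD, n = 3) in Rnf40-/- MEFs. Only the loxP-flanked exons are removed, and counts per gene do not separate these from the rest of the transcript. The study reports effective loss of RNF40 and of monoubiquitinated H2B by western blot. Rnf40+/+ replicate 3 was the deepest library, and it differed more from the other libraries of its genotype (chi-square per gene of 25.6 and 28.3) than these did from each other (7.85). MEF cultures are mixed, and markers of several cell types were measured. The shares of tested markers called in either direction were 77.8% (fibroblast), 80% (mural and smooth muscle), 57.1% (endothelial), 50% (macrophage) and 33.3% (epithelial). Over all genes tested the share was 47.4%, with 23.3% higher and 24.1% lower (adjusted p under 0.05, limma, as below). Of 9 fibroblast markers, 7 were lower with an adjusted p under 0.05 (limma, as below) and Dcn and Lum did not pass, but their summed normalized count remained between 185357 and 199435 in Rnf40-/- MEFs against 354316 to 413828 in Rnf40+/+ MEFs. Of 10 mural and smooth muscle markers 7 were lower and 1 was higher. Their sum, with most of the counts from Acta2 and Tagln, was 26554.5 to 31695.7 against 159505 to 174376. Of 9 endothelial markers 7 had enough reads to be tested, and 3 were higher and 1 was lower, with overlapping sums of 298 to 388 in Rnf40-/- and 232 to 327 in Rnf40+/+ MEFs. The endothelial genes Pecam1 and Cdh5 rose from 3.75 ± 1.22 to 27.6 ± 8.34 and from 2.76 ± 2.17 to 31.6 ± 8.03 normalized counts, Kdr rose from 27.4 ± 6.47 to 84.5 ± 28.7, and Emcn fell from 126 ± 37.7 to 55.3 ± 11.9 (SD, n = 3 each). Of 8 macrophage markers 1, Ptprc, was higher and 3 were lower, with sums of 3535 to 3914 against 5661 to 9702. Most of these counts came from Lyz2 (5314 ± 1867 to 2264 ± 152, SD, n = 3 each), which was highest in Rnf40+/+ replicate 3. Of 6 epithelial markers 3 were tested and 1, Cldn4, was higher (6.10 ± 3.32 to 19.7 ± 0.26, SD, n = 3 each). The sums of the epithelial markers overlapped (578 to 812 against 436 to 788), with most of the counts from Krt19. No marker of these lists was at 0 in every library. The part of these cells in the results on Notch genes was not tested. In bulk RNA, fewer cells of a type and less RNA per cell cannot be told apart.

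Loss of Rnf40 was accompanied by higher RNA of the receptors Notch1 and Notch2 and of the ligand Jag2, and by lower RNA of the target Hes1. The ratios of the group means were 1.77, 1.36 and 4.06 for Notch1, Notch2 and Jag2 and 0.545 for Hes1. Notch3, Notch4, Jag1 and Hey1 did not pass the test, and Dll1 and Heyl had too few reads to be tested. The test was that of limma, applied to log2(normalized count + 1) with Benjamini-Hochberg adjustment over all 16378 genes with enough reads, and the added 1 understates the change of genes with few reads. Of the 8 members tested, 3 (37.5%) were higher and 1 (12.5%) was lower with an adjusted p under 0.05, whereas 23.3% of all genes tested were higher and 24.1% were lower. In either direction 4 of 8 members (50%) were called against 47.4% of all genes, so that the number of members called was close to the background. The median log2 fold change of the 8 members was 0.27, beside -0.0035 over all genes tested. The same 4 members were the ones whose genotypes did not overlap, which was the case for 27.8% of all genes in the direction of higher and for 28.7% in the direction of lower values in Rnf40-/- MEFs.

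**Figure D1:**
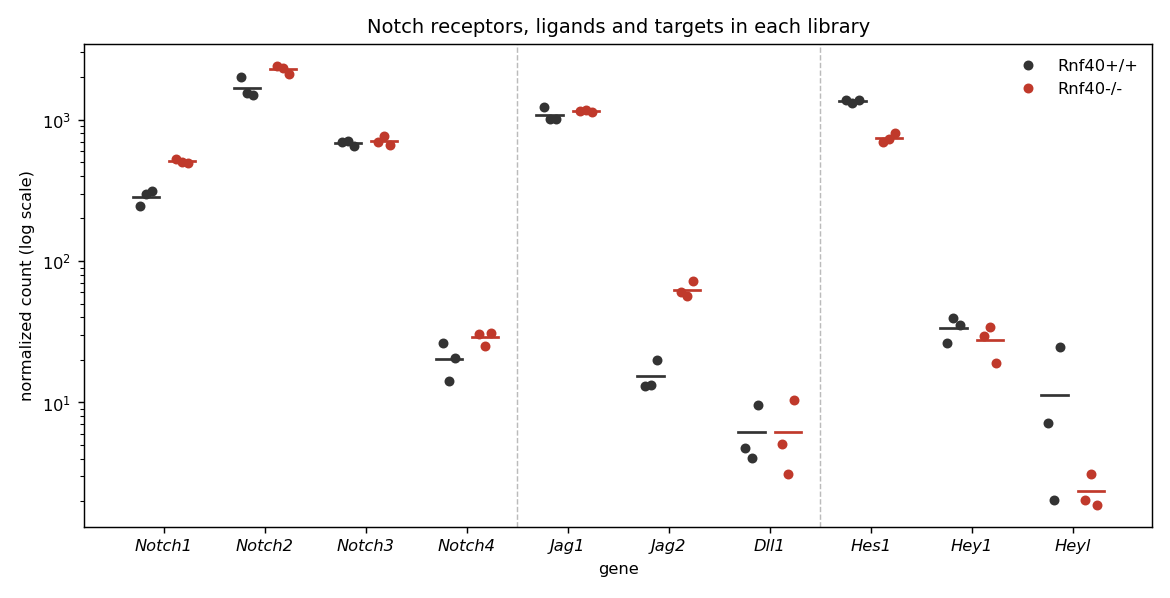
Normalized count (log scale) of each of the 10 members in the 3 Rnf40+/+ and 3 Rnf40-/- libraries. Points are libraries and horizontal bars are group means, and the dashed lines separate receptors, ligands and targets. The genotypes do not overlap for Notch1, Notch2, Jag2 and Hes1.

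**Figure D2:**
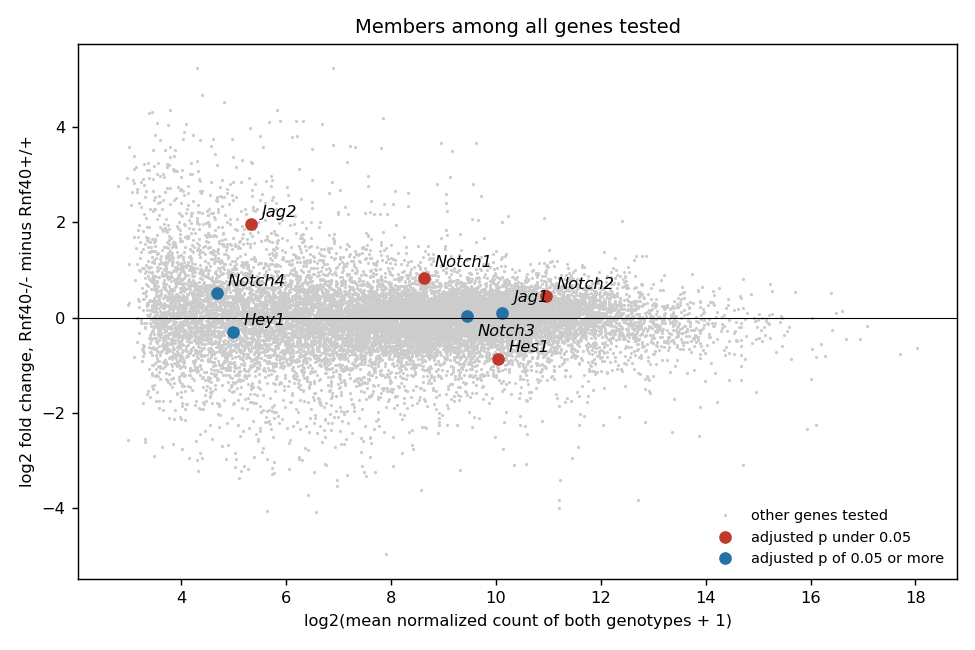
Log2 fold change (Rnf40-/- minus Rnf40+/+, on the log2(normalized count + 1) scale) against the log2 of the mean normalized count for the 16378 genes tested (grey). The 8 members tested are named, in red where the adjusted p was under 0.05 and in blue otherwise, and Jag2 lies highest among them at 1.97.

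The promoters of the 3 members that rose are shown to give the sequence at which their transcription starts. The RefSeq windows (GRCm38.p6, a different build from the mm9 of the gene positions) run from 250 bases before to 50 bases after the annotated start, 5′ to 3′ on the strand of the gene, with CG dinucleotides in capitals. They are Notch1 (chr2:26503773-26504072, minus strand), Notch2 (chr3:98013288-98013587, plus strand) and Jag2 (chr12:112929446-112929745, minus strand).
Notch1: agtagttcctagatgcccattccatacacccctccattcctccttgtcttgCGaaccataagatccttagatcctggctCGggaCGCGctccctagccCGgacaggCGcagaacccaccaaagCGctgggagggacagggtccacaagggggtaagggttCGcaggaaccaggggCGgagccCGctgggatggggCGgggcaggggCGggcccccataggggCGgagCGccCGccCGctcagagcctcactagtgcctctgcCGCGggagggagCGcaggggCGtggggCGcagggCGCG
Notch2: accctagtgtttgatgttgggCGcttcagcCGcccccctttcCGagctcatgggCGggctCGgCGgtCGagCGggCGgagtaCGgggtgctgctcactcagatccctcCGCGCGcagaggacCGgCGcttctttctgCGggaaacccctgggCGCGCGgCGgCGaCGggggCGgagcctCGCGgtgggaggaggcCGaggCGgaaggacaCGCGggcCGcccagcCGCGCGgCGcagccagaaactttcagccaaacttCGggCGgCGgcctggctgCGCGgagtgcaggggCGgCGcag
Jag2: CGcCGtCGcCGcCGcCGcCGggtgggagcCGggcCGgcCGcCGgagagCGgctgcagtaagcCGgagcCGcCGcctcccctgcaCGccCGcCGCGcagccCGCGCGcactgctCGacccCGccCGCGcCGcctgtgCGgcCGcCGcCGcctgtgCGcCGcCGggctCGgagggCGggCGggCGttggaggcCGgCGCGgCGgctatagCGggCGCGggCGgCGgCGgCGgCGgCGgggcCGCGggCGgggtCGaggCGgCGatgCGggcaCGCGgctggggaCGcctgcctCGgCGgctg

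These windows hold 23, 41 and 63 CG dinucleotides for Notch1, Notch2 and Jag2, against a median of 7 over 32851 promoter windows of the same length. The window of Jag2 held more of them than 99.97% of all windows. Among members that did not pass the test, the windows of Notch3 and Jag1 held 25 and 22, and that of Notch4 held 5. High CG content was therefore shared by members that rose and by members that did not pass. The 2 windows of Dll1 held 24 and 15. RefSeq windows were matched for 7 of the 10 members, and Hes1, Hey1 and Heyl had none. The core letters bound by RBPJ, GTGGGAA on either strand, were found in 6.38% of all windows and in none of those of the 7 members, which says only that these letters are not in these windows. Of the gene lists that the study made from chromatin data, that of broad H3K4me3 holds Jag1 and Hes1 and that of EZH2 targets holds Dll1. Lists made from the expression of these libraries were not used, and the copies of the chromatin lists may not hold every gene.

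Notch1 (ENSMUSG00000026923, mm9, minus strand of chromosome 2, 26313423 to 26372183) encodes a receptor used in many tissues. Its normalized counts were 246, 299.8 and 311 for Rnf40+/+ and 528, 501 and 490 for Rnf40-/- MEFs. Every Rnf40-/- library was thus above every Rnf40+/+ library. On the log2 scale the change was 0.83 (SE 0.11, limma adjusted p = 6.52e-05), and its values without single libraries ranged from 0.73 to 0.90.

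Notch2 (ENSMUSG00000027878, plus strand of chromosome 3, 97817461 to 97954290) encodes a second broadly expressed receptor. It had 2006, 1542 and 1484 normalized counts in Rnf40+/+ and 2397, 2322 and 2115 in Rnf40-/- libraries. The genotypes did not overlap, although Rnf40+/+ replicate 1 came close to the lowest Rnf40-/- library. On the log2 scale the change was 0.45 (SE 0.10, limma adjusted p = 0.00355). It was 0.59 without Rnf40+/+ replicate 1 and 0.37 without Rnf40+/+ replicate 3, and it passed the test whichever library was left out.

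Notch3 (ENSMUSG00000038146, minus strand of chromosome 17, 32257765 to 32303825), the receptor known from mural cells, had 699, 709.8 and 655 normalized counts in Rnf40+/+ and 696, 766 and 661 in Rnf40-/- libraries. The libraries of the genotypes were intermingled. The log2 fold change was 0.040 (95% confidence interval -0.14 to 0.22, adjusted p = 0.724 from limma) and turned to -0.019 without Rnf40-/- replicate 2. Of the 10 mural and smooth muscle markers, 7 fell in the same libraries, as described above. The marker Rgs5 went the other way, with a log2 fold change of 0.59 (adjusted p = 0.0428 from limma). Kcnj8 and Abcc9 did not pass, at -0.13 and 0.40 (adjusted p = 0.849 and 0.224 from limma). The markers thus did not move together, and the part of mural cells in the level of Notch3 was not tested.

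Notch4 (ENSMUSG00000015468, plus strand of chromosome 17, 34701213 to 34725448), known mainly from endothelium, was the receptor with the fewest reads. It had 26.3, 14.3 and 20.8 normalized counts in Rnf40+/+ and 30.6, 25.0 and 31.2 in Rnf40-/- libraries, from 14 to 33 reads each. Rnf40+/+ replicate 1 lay within the range of the Rnf40-/- libraries. The log2 fold change of 0.52 had a wide 95% confidence interval, from -0.17 to 1.20 (adjusted p = 0.203 from limma), and was 0.29 without Rnf40+/+ replicate 2.

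Among the ligands, Jag2 (ENSMUSG00000002799, minus strand of chromosome 12, 114146801 to 114167706) had few reads in Rnf40+/+ MEFs. Its normalized counts were 13.1, 13.3 and 20.0 in Rnf40+/+ and 60.2, 56.4 and 71.8 in Rnf40-/- libraries, which corresponds to 11, 13 and 25 and to 59, 54 and 76 reads. The lowest Rnf40-/- library was well above the highest Rnf40+/+ library. On the log2 scale the change was 1.97 (SE 0.28, limma adjusted p = 0.000114), with a range of 1.87 to 2.16 when single libraries were left out. Jag2 was the one member that also met the thresholds of the study. These are a log2 fold change beyond 1 in either direction, p under 0.05 and a mean of more than 15. Here the p, which was not adjusted, and the log2 fold change were those of limma, whereas the study used DESeq. These thresholds are stricter in fold change but looser in p than an adjusted p under 0.05. The thresholds were met by 4.25% of all genes tested in the higher and by 5.7% in the lower direction. The estimate depended on the added constant, since the log2 fold change was 1.52 with 10 in place of 1 and 2.04 with 0.1.

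Jag1 (ENSMUSG00000027276, minus strand of chromosome 2, 136907192 to 136942380), the more abundant Jagged ligand here, had 1225, 1010 and 1013 normalized counts in Rnf40+/+ and 1150.2, 1171 and 1126 in Rnf40-/- libraries. The Rnf40-/- libraries all lay within the range of the Rnf40+/+ libraries. The log2 fold change was 0.092 (95% confidence interval -0.092 to 0.28, adjusted p = 0.398 from limma).

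Dll1 (ENSMUSG00000014773, minus strand of chromosome 17, 15504318 to 15513836), a Delta-like ligand, had between 3 and 12 reads per library and was left out of the test. Its normalized counts were 4.78, 4.08 and 9.58 in Rnf40+/+ and 5.10, 3.13 and 10.4 in Rnf40-/- libraries. A difference between genotypes was not detectable at this depth.

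Hes1 (ENSMUSG00000022528, plus strand of chromosome 16, 30064470 to 30067882) encodes a basic helix-loop-helix repressor that is induced by Notch and also by other signals. Its normalized counts were 1387, 1309 and 1383 for Rnf40+/+ and 694, 728 and 801 for Rnf40-/- MEFs. All Rnf40-/- libraries were far below the Rnf40+/+ libraries, whose values lay close together. On the log2 scale the change was -0.88 (SE 0.08, limma adjusted p = 2.74e-06), the lowest adjusted p among the members, and it stayed between -0.93 and -0.83 without single libraries. Genes with a pattern like that of Hes1 were sought among genes with a mean above 15 by Pearson's r over the 6 libraries. The highest r were those of Clspn (0.99984), Fam98a (0.99895) and Dtl (0.99891), and these values describe 6 points in 2 groups that share their libraries. Clspn, which encodes the checkpoint mediator Claspin, had 143, 116 and 139 normalized counts in Rnf40+/+ and 13.3, 15.7 and 20.8 in Rnf40-/- libraries. Dtl, which encodes a substrate receptor of a ubiquitin ligase active in S phase, had 209, 165 and 205 against 33.6, 40.7 and 48.2. Fam98a had 1342, 1317 and 1346 against 1012, 1051 and 1080. The similarity thus concerned the pattern over the libraries and not the size of the fall, as the log2 fold changes were -2.95 for Clspn, -2.22 for Dtl and -0.35 for Fam98a.

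Hey1 (ENSMUSG00000040289, minus strand of chromosome 3, 8663362 to 8667039), a HEY family repressor, had 26.3, 39.8 and 35.1 normalized counts in Rnf40+/+ and 29.6, 34.4 and 18.9 in Rnf40-/- libraries. The genotypes overlapped. The log2 fold change was -0.30 with a 95% confidence interval from -0.97 to 0.37 (adjusted p = 0.449 from limma), so a fall as large as that of Hes1 lay within the interval. Without Rnf40-/- replicate 3 the value was -0.057, and without Rnf40-/- replicate 2 it was -0.47.

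Heyl (ENSMUSG00000032744, plus strand of chromosome 4, 122910799 to 122927118), another member of that family, could not be tested. It had 6, 2 and 31 reads in Rnf40+/+ and 2, 3 and 2 reads in Rnf40-/- MEFs. The detection limit, set at 3 reads, was not exceeded in Rnf40-/- MEFs, and the higher mean of Rnf40+/+ MEFs rested on replicate 3. Without this library the difference of the mean log2 values was -0.59 in place of -1.38.

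Levels of different genes were compared as normalized counts per kb of transcript. With the mean length of a gene's annotated transcripts, the order in Rnf40+/+ MEFs was Hes1 (1902 ± 61.0), Jag1 (306 ± 35.0), Notch2 (165 ± 28.1), Notch1 (91.6 ± 11.2) and Notch3 (85.5 ± 3.61, SD, n = 3 each). Notch1 and Notch3 overlapped, whereas the other neighbours among these 5 did not. Far below followed Hey1 (15.3 ± 3.11), Notch4 (13.2 ± 3.88), Heyl (6.14 ± 6.46), Dll1 (5.14 ± 2.51) and Jag2 (3.81 ± 0.96 per kb, SD, n = 3 each), which overlapped with their neighbours. In Rnf40-/- MEFs the first 5 kept their order, with 1037 ± 75.9 per kb for Hes1 and 162 ± 6.30 for Notch1 (SD, n = 3 each). Jag2 reached 15.5 ± 1.98 per kb (SD, n = 3), between Notch4 (18.7 ± 2.18) and Hey1 (12.5 ± 3.61), and moved from the tenth to the seventh place, where it overlapped with both. With the longest transcript of each gene it went from the seventh to the sixth place, above Hey1 and above Notch4 (4.39 ± 0.51 per kb in Rnf40-/- MEFs, SD, n = 3). Jag1 nevertheless remained the leading ligand at 325 ± 6.30 per kb in Rnf40-/- MEFs.

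Per transcript length, the sum of the 4 receptors was 340.3 to 379.6 in Rnf40+/+ and 466.9 to 510.9 in Rnf40-/- libraries. Notch2 made up the largest part of it, with 46.2% ± 4.96 in Rnf40+/+ and 45.4% ± 0.82 in Rnf40-/- MEFs (SD, n = 3 each), and the genotypes overlapped. The share of Notch1 was 20.8%, 27.9% and 29.3% in Rnf40+/+ and 33.1%, 32.1% and 33.6% in Rnf40-/- libraries. The share of Notch3 was 22.9%, 25.6% and 23.9% in Rnf40+/+ and 16.9%, 19.1% and 17.6% in Rnf40-/- libraries. Neither of these shares overlapped between the genotypes, the one being higher and the other lower in Rnf40-/- MEFs, and no test was applied. Both are parts of the same sum, which was larger in Rnf40-/- MEFs, so the lower share does not mean less Notch3 RNA. Its level per kb was 85.5 ± 3.61 in Rnf40+/+ and 88.0 ± 6.65 in Rnf40-/- MEFs (SD, n = 3 each). Notch4 contributed 3.70% ± 0.92 and 3.81% ± 0.54 (SD, n = 3 each). The shares depended on the length used, as the mean transcript of Notch1 (3.12 kb) is much shorter than its longest (9.49 kb). With the longest transcript of each gene, Notch1 made up 11.0% in Rnf40+/+ and 14.7% in Rnf40-/- MEFs, Notch2 57.1% and 59.8%, Notch3 30.8% and 24.3%, and Notch4 1.11% and 1.22%. The level of Notch1 was then below that of Notch3, at 30.1 ± 3.68 against 85.5 ± 3.61 per kb in Rnf40+/+ MEFs (SD, n = 3 each), and in Rnf40-/- MEFs Notch2 (217 ± 13.9) was above Jag1 (205 ± 3.97).

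**Figure D3:**
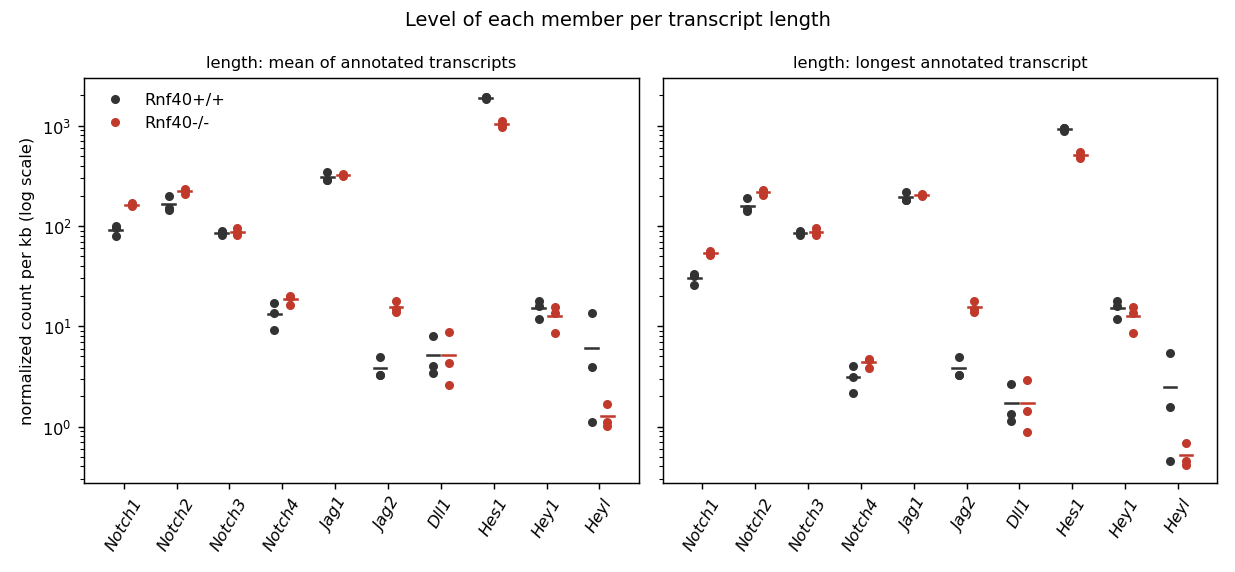
Normalized count per kb (log scale) of the 10 members in the 3 Rnf40+/+ and 3 Rnf40-/- libraries, with the mean length of the annotated transcripts (left) and the longest transcript (right). Points are libraries and bars are group means. Hes1 leads in both panels, whereas Notch1 lies near Notch3 on the left and below it on the right.

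The rest of the pathway was described with a list of 48 other genes, of which 39 had enough reads to be tested. Of these 39 genes, 10 (25.6%) were higher and 10 (25.6%) were lower with an adjusted p under 0.05, close to the 23.3% and 24.1% of all genes tested. Their median log2 fold change was 0.016. The list therefore did not move in one direction, and the differences below are those of single genes.

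Both ADAM proteases that cut the receptor were higher. Adam10, which makes the first cut after ligand binding, rose from a normalized count of 3297 ± 114 to 5014 ± 149 (SD, n = 3 each), or by 0.60 on the log2 scale (limma adjusted p = 8.22e-06). Adam17, a related protease, rose from 1099 ± 77.5 to 1747 ± 80.9 (log2 fold change 0.67, adjusted p = 1.88e-05 from limma). The γ-secretase complex makes the second cut, and the subunits described here did not move together. Ncstn, which encodes the substrate-binding nicastrin, rose by 0.28 (limma adjusted p = 0.00344). Psenen fell by 0.56 (adjusted p = 0.000528 from limma) and Aph1a by 0.31 (adjusted p = 0.00135). Aph1b and Aph1c, paralogs whose reads may be shared, fell by 0.37 and 0.35 (adjusted p = 0.0167 and 0.0334 from limma). Psen2 had a log2 fold change of 0.016 (adjusted p = 0.913 from limma). In all, 3 of the 8 cleavage genes were higher and 4 were lower, or 87.5% called against 47.4% of all genes tested. The share in the other role groups of this list ran from 22.2% (nuclear complex and corepressors) to 100% (other ligands, with 2 genes tested). The call of Aph1c was lost whichever of the 6 libraries was left out (adjusted p from 0.0543 to 0.112), and that of Aph1b without Rnf40+/+ replicate 2, Rnf40-/- replicate 1 or Rnf40-/- replicate 2 (0.0567 to 0.0677).

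The delta-like proteins Dlk1 and Dlk2, which lack the receptor-binding domain of the canonical ligands, went in opposite directions. Dlk1 had 1708, 1750 and 1624 normalized counts in Rnf40+/+ and 567, 573 and 654 in Rnf40-/- libraries, which is -1.50 on the log2 scale (SE 0.08, limma adjusted p = 5.89e-08). Dlk2 had 75.2, 102 and 80.7 in Rnf40+/+ and 265, 299.5 and 301 in Rnf40-/- libraries, which is 1.75 on the log2 scale (SE 0.15, limma adjusted p = 2.40e-06). For both genes the genotypes were widely apart. The canonical ligand Dll4 had at most 2 reads in any library, and Dll3 had between 2 and 9.

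Among the enzymes that mature the receptor, Lfng rose from a normalized count of 176 ± 22.5 to 331 ± 21.8 (SD, n = 3 each), or by 0.91 on the log2 scale (limma adjusted p = 9.01e-05). Lfng encodes lunatic fringe, a glycosyltransferase that extends O-fucose on Notch and thereby changes the response to different ligands. Furin, the convertase of the receptor precursor, fell by 0.37 (adjusted p = 0.000459 from limma), and the O-glucosyltransferase Poglut1 by 0.40 (adjusted p = 0.00276). The deposited table also holds Poglut1 under its older name Ktelc1, so its reads may be divided. Pofut1 and Rfng did not pass the test, with log2 fold changes of -0.11 each. Of the ubiquitin ligases that drive endocytosis of ligands, Mib1 rose by 0.41 (adjusted p = 0.000468 from limma), and Mib2 and Neurl1a did not pass (adjusted p = 0.0591 and 0.0666).

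In the nucleus, Rbpj had 4447 ± 397 normalized counts in Rnf40+/+ and 4171 ± 36.8 in Rnf40-/- MEFs (SD, n = 3 each), a difference of -0.088 on the log2 scale (limma adjusted p = 0.34). Without Rnf40+/+ replicate 3 it was -0.16 and passed the test (adjusted p = 0.0399 from limma). The coactivators Maml1, Maml2 and Maml3 did not pass, with log2 fold changes of -0.19, -0.061 and -0.31. The repressor Spen, which binds RBPJ in the absence of Notch, rose by 0.40 (adjusted p = 0.00331 from limma), and Kdm5a, an H3K4 demethylase, by 0.39 (adjusted p = 0.000533).

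Among genes that restrain or turn over Notch, Numbl fell from a normalized count of 1968 ± 195 to 907 ± 75.6 (SD, n = 3 each), a change of -1.12 on the log2 scale (limma adjusted p = 1.21e-06). Its paralog Numb, which like Numbl encodes an endocytic adaptor, had a log2 fold change of 0.38 (adjusted p = 0.0306 from limma). This call was lost when any single library was left out other than Rnf40+/+ replicate 1 (adjusted p from 0.0674 to 0.0995). Dtx3, of the Deltex family of ubiquitin ligases, fell from 2050 ± 303 to 1083 ± 91.2 (SD, n = 3 each), a change of -0.91 on the log2 scale (limma adjusted p = 2.18e-05). Dtx2, Dtx3l, Dtx4, Itch and Fbxw7 did not pass the test, with log2 fold changes between -0.25 and 0.26.

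Of the other genes listed as targets, which include HES and HEY family genes, Hes6 rose by 0.31 (adjusted p = 0.0247 from limma). Id3 of the same list fell by 0.28 (adjusted p = 0.00209 from limma). The call of Hes6 was lost when any single library was left out other than Rnf40+/+ replicate 3 (adjusted p from 0.0623 to 0.0857 from limma). Nrarp, a target that feeds back on the nuclear complex, had 9, 18 and 0 reads in Rnf40+/+ and 39, 23 and 23 reads in Rnf40-/- libraries. The genotypes did not overlap, but the adjusted p was 0.0514 (limma), and the log2 fold change of 2.22 rested on the library without a read and was 0.92 without it (adjusted p = 0.0783). It passed the test with an added constant of 10 (limma adjusted p = 0.024), without Rnf40+/+ replicate 1 (0.0245) or replicate 2 (0.0218) and with a replicate block (0.00649), whereas the adjusted p was 0.0778 in edgeR and 0.336 in DESeq2. Hey2 had 39.0 ± 4.37 and 38.7 ± 8.46 normalized counts (SD, n = 3 each, adjusted p = 0.939 from limma). Hes5 had 1 read in all libraries together, and Hes2, Hes3 and Hes7 had too few to be tested. The genes listed as targets thus included members and other genes that fell, rose or did not pass. At an adjusted p under 0.05, Hes6 alone was called higher among them, and which of them respond to Notch in MEFs was not tested.

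**Figure D4:**
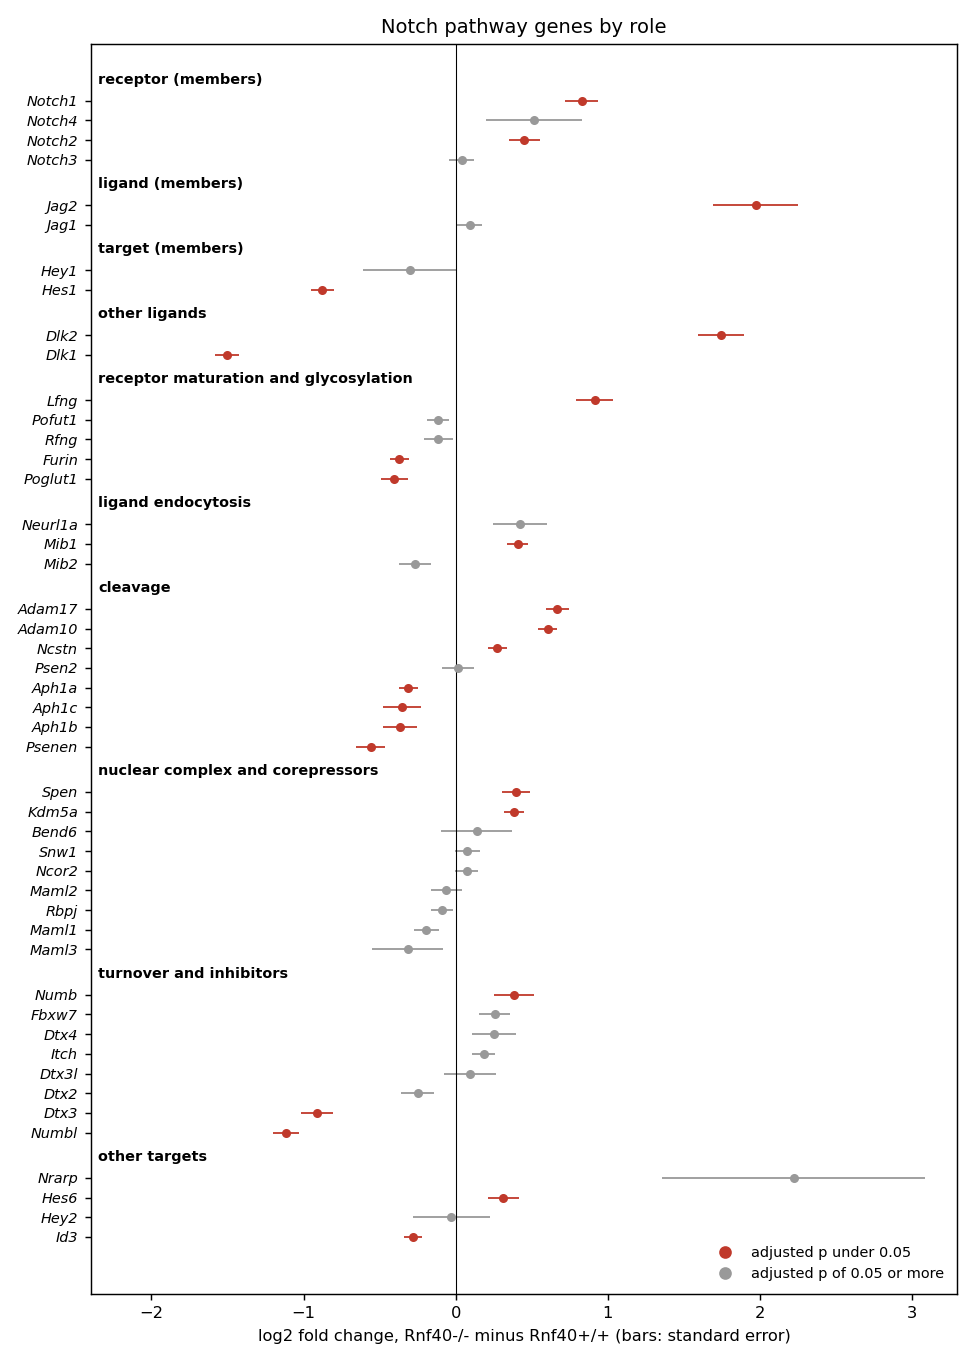
Log2 fold change (Rnf40-/- minus Rnf40+/+, on the log2(normalized count + 1) scale) of the 8 members and the 39 other pathway genes tested, grouped by role. Bars are the standard error of limma and red marks an adjusted p under 0.05. Genes to the right of 0 were higher in Rnf40-/- MEFs, and each of the groups of cleavage genes and other ligands holds genes on both sides.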

How the data were processed

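RNA of 3 Rnf40+/+ and 3 Rnf40-/- MEF libraries was sequenced after directional library preparation. The authors aligned the reads to mouse transcripts of build mm9 and scaled the counts with DESeq. The submitters' processing notes name Bowtie2 (version 2.1.0) and DESeq (version 1.14.0), and the counting tool and its use of strand are not given in the sources used here. The deposited signal per gene is its reads divided by 1 size factor per library. Dividing by the value of 1 read gave whole numbers for 100% of the values of each library (tolerance 0.01), so that reads were recovered, and library size factors were 0.837 to 1.25.

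Genes with few reads were removed by filterByExpr (edgeR, version 4.0.16). The design named limma for normalized values, and limma (version 3.58.1, R version 4.3.3) was used with a trend and genotype as the only term. The quasi-likelihood test of edgeR and the Wald test of DESeq2 (version 1.42.0) on the reads, other scalings, filters, pseudocounts, a replicate block and each library left out were alternatives. On the reads, edgeR called 3857 higher and 3940 lower genes at the same threshold (adjusted p of 0.05), and limma called 3809 and 3955. The tests were tried on simulated data. Libraries of the same genotype differed by more than sampling noise (chi-square per gene from 5.30 to 28.3).

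Positions and transcript lengths are from GENCODE for mm9. Notch1, Notch3, Notch4 and Dll1 overlap annotated genes on the opposite strand that are not among the features analysed here. All 10 members are named with their values, and the other pathway genes and markers come from lists written from general knowledge, of which 1 gene is not reported here. The macrophage marker Adgre1 was found under its older symbol Emr1. The members and lists were chosen with earlier results of these data known. Permutation p values were left out, as 3 libraries per genotype are too few for them to pass 0.05.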

Additional observations from a re-analysis of the deposited data

How the results depend on the processing

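The calls of Notch1, Notch2, Jag2 and Hes1 and the lack of a call for Notch3, Notch4, Jag1 and Hey1 were alike under the 15 alternatives run, and of 120 values for these 8 genes 1 changed sign, the log2 fold change of Notch3 (without Rnf40-/- replicate 2). With single libraries left out it ranged from -0.019 to 0.088. Of 584 values for the 39 other pathway genes, 20 lost and 17 gained a call and 7 changed sign. The latter arose when single libraries were left out, with ranges from -0.072 to 0.094 for Psen2, -0.14 to 0.016 for Maml2, -0.067 to 0.31 for Bend6, -0.031 to 0.21 for Dtx3l and -0.19 to 0.11 for Hey2, none of which passed the test, and the cause was not tested. With at least 10 reads in every library, fewer genes were tested (14912 in place of 16378). By the criteria of the study, 453 of them were higher in place of 696, and 801 were lower in place of 934. With the longest transcript, the receptor shares in Rnf40+/+ and Rnf40-/- MEFs were 11.0% and 14.7% for Notch1, 57.1% and 59.8% for Notch2, 30.8% and 24.3% for Notch3, and 1.11% and 1.22% for Notch4. Whether libraries with the same replicate number were paired is not given in the sources used here. The r of their deviations from the group means (0.0118, 0.0174 and 0.0212) cannot decide it with 3 libraries per genotype. A replicate block left 3 members higher and 1 lower and called more genes in all (4021 and 4196, in place of 3809 and 3955). Members with under about 30 reads per library (Notch4, Dll1, Heyl and in part Hey1 and Jag2) are limited by depth.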
